A study of Phaffia rhodozyma with 6 samples.

Results

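Genes described as flavonol reductase/cinnamoyl-CoA reductase numbered 3 among the 6249 genes of *Phaffia rhodozyma* whose expression was listed. Gene_4841 and gene_10855 are the main subject, named here by the end of their IDs in the deposited table (unassigned_gene_4841 and unassigned_gene_10855). They were chosen by their difference in expression between the groups compared here, so their values in that comparison are given as a description, without a test. Gene_3349 (unassigned_gene_3349) is the only other gene with this description, was not chosen by its values and was tested along with all genes. RNA sequencing was done on *P. rhodozyma* strain AS2.1557, a yeast that makes the red carotenoid astaxanthin, grown in YPD medium at 22 °C for 96 h. The SA-treatment group (S group) held 3 libraries, S1 to S3, from cells given 0.5 mg/L salicylic acid (SA), a phenolic compound that plants use as a signal. The SA-free group (C group) held 3 libraries, C1 to C3, from cells grown in the same way without SA. The time at which cells were taken for RNA is not stated, and the paper says that experiments were done in 3 repeats but not whether the libraries of a group came from separate cultures.

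Flavonol reductases and cinnamoyl-CoA reductases are enzymes of the extended short-chain dehydrogenase/reductase (SDR) class, which bind NADPH and use it to reduce a carbonyl group. In plants, cinnamoyl-CoA reductase makes aldehydes on the path to lignin, and the related dihydroflavonol reductase works on the path to anthocyanin pigments. Budding yeast (*Saccharomyces cerevisiae*) has relatives that reduce small aldehydes and ketones, and which compounds the *P. rhodozyma* enzymes reduce is not given by their annotation.

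Expression was given as FPKM, read fragments scaled by transcript length and by the mapped fragments of the library, so levels of different genes can be compared per length. A limma fit on log2(FPKM + 0.1) tested the 6113 genes whose mean reached 0.5 FPKM and called those with an adjusted p under 0.05. With SA, 1218 genes (19.9%) were higher and 185 (3.03%) were lower. The median log2 difference of all these genes was 0.21, and the median FPKM was 29.2 to 32.0 in the S libraries and 23.6 to 26.4 in the C libraries. Scaling therefore bears on every count: with each library centred on its median, 444 genes (7.26%) were higher and 937 (15.3%) lower, while quantile normalization gave 404 (6.61%) higher and 518 (8.47%) lower. Library S3 had the most reads and the highest mapped share in the study's sequencing summary. Leaving it out gave 553 higher and 79 lower genes, leaving out S2 gave 501 and 67, leaving out C2 gave 720 and 71, and leaving out C3 gave 1121 and 293. Pearson's r of the libraries over these genes was 0.988 to 0.992 within the S group, 0.979 to 0.987 within the C group and 0.967 to 0.983 between the groups. The 4 defining carotenoid genes of this yeast were expressed in every library, at 51.4 to 541 FPKM. The summed FPKM of all 11 rows on the marker list was 1078 to 1198 in the S group and 1098 to 1119 in the C group. This sum hides opposite differences, and the list also took in rows of enzymes that act on proteins. Gene_7795, a synthase of the precursor GGPP, was at 332 to 377 FPKM with SA and 450 to 541 FPKM without. Phytoene dehydrogenase (gene_3359) was higher in the S group, at 437 to 520 FPKM beside 364 to 413. So were gene_3233 (68.9 to 105 beside 51.4 to 57.3) and astaxanthin synthase gene_2447 (79.6 to 98.3 beside 62.7 to 72.9).

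Gene_4841 was expressed at 68.3, 44.0 and 57.8 FPKM in S1 to S3 and at 3.00, 6.80 and 4.81 FPKM in C1 to C3. All S libraries lay far above all C libraries, with S2 the lowest of the S group and C2 the highest of the C group. The mean FPKM was 56.7 ± 12.2 (SD, n = 3) with SA and 4.87 ± 1.90 (SD, n = 3) without it, an 11.6-fold ratio, and even the lowest S library was 6.48-fold above the highest C library. Its log2 difference of 3.57 ranked 1 among the 6113 genes tested. It was 3.29 with centred libraries, 3.28 after quantile normalization and 3.54 without S3. Among the tested genes of the same library, gene_4841 stood between percentiles 8.36 and 18.2 in the C group and between percentiles 59.6 and 73.1 in the S group. A gene of the low end of the transcriptome without SA thus lay above its middle with SA. Levels from bulk cells are relative to all RNA, so more RNA of a reductase per cell and less RNA of other genes cannot be told apart.

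Gene_10855 was expressed at 156, 129 and 205 FPKM in S1 to S3 and at 23.0, 21.1 and 33.7 FPKM in C1 to C3. The groups did not overlap here either, and replicate 3 was the highest library of each group. The mean was 164 ± 38.4 FPKM (SD, n = 3) in the presence of SA and 25.9 ± 6.79 FPKM (SD, n = 3) in its absence, a ratio of 6.31, and the lowest S library was 3.84-fold above the highest C library. The log2 difference was 2.66, rank 7 among the tested genes, and it was 2.38 with centred libraries, 2.49 after quantile normalization and 2.48 without S3. Without SA the gene stood near the middle of the transcriptome, between percentiles 43.7 and 58.9, and with SA between 84.9 and 90.4. Over all tested genes, the lowest S library lay above the highest C library in 2205 (36.1%), a share printed as background only, since the same contrast chose both reductases.

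Gene_3349 was expressed at 73.3, 46.9 and 35.4 FPKM in S1 to S3 and at 46.5, 55.5 and 44.6 FPKM in C1 to C3. The groups overlapped, and both the highest and the lowest of the 6 values came from the S group. The mean was 51.9 ± 19.4 FPKM (SD, n = 3) with SA and 48.8 ± 5.83 FPKM (SD, n = 3) without SA. The log2 difference was 0.03 (SE 0.22, 95% interval −0.47 to 0.53; limma, adjusted p = 0.940, and 0.314 to 0.991 over the alternatives). The interval leaves room for a ratio of the S to the C group from 0.721 to 1.44. The sign of this small difference turned with the scaling, to −0.25 with centred libraries and −0.20 after quantile normalization. It also turned when S1, C1 or C3 was left out, to −0.25 without S1. Of the 1 reductase gene open to a test, 0 passed in either direction, beside 19.9% of all genes higher and 3.03% lower, and its unadjusted p of 0.905 missed 0.05 too.

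**Figure D1:**
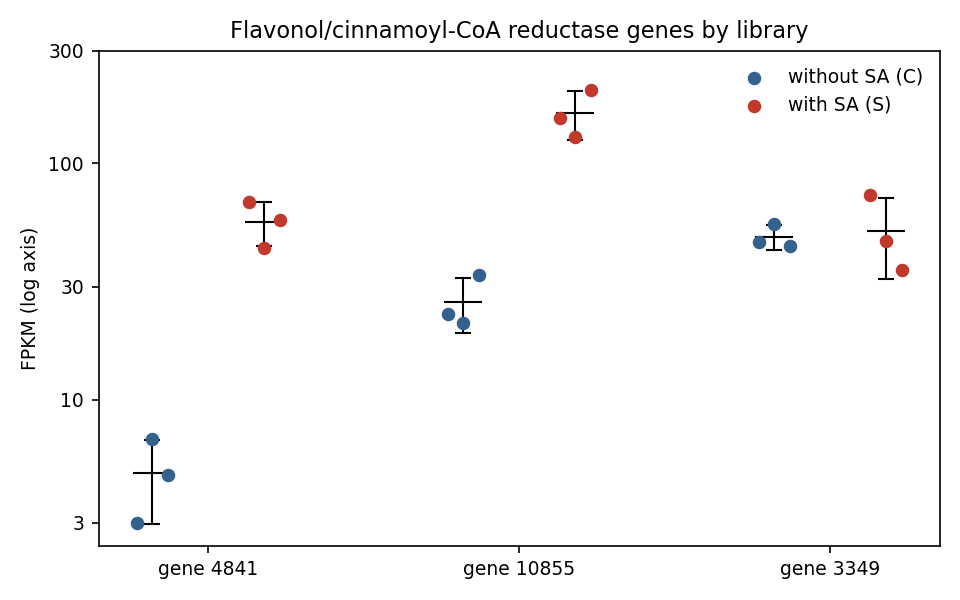
FPKM of the 3 reductase genes on a log axis, with 1 point per library (blue, C group; red, S group), the mean as a long bar and the SD as whiskers (n = 3). The S and C points are separate for gene_4841 (C 3.00 to 6.80, S 44.0 to 68.3) and gene_10855 (C 21.1 to 33.7, S 129 to 205) and overlap for gene_3349 (C 44.6 to 55.5, S 35.4 to 73.3).

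The order of the 3 genes differed between the groups. As gene_4841 and gene_10855 were chosen by their difference, this order and the ratios to gene_3349 largely restate that choice. In every C library gene_3349 was the highest, gene_10855 came next and gene_4841 was the lowest, and the ranges of the 3 genes did not overlap. In every S library gene_10855 was the highest, while gene_4841 and gene_3349 overlapped and cannot be placed in order. Ratios of genes within a library are free of the scaling between libraries. Gene_4841 stood at 0.0646 to 0.123 times the FPKM of gene_3349 in the C libraries and at 0.933 to 1.63 times in the S libraries. Gene_10855 stood at 0.380 to 0.756 times that of gene_3349 in the C libraries and at 2.13 to 5.79 times in the S libraries. Between the 2 chosen genes, gene_10855 had 7.65, 3.10 and 7.01 times the FPKM of gene_4841 in C1 to C3, and 2.29, 2.94 and 3.55 times in S1 to S3. These last ratios overlapped between the groups, because C2 lay within the range of the S libraries.

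The summed FPKM of the family was 298, 220 and 298 in S1 to S3 and 72.5, 83.4 and 83.1 in C1 to C3. Its mean was 272 ± 44.9 (SD, n = 3) with SA and 79.6 ± 6.19 (SD, n = 3) without SA. The makeup of this sum differed as well. Both differences largely restate the choice of gene_4841 and gene_10855 and are no separate result on the family. Gene_3349 gave 53.6% to 66.5% of the sum without SA and 11.9% to 24.6% with SA. Gene_10855 gave 25.3% to 40.6% without SA and 52.4% to 68.7% with SA, and gene_4841 gave 4.14% to 8.16% and 19.4% to 22.9%. In S3, where gene_10855 was at its highest and gene_3349 at its lowest, the family sum was the same as in S1 after rounding to whole FPKM.

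**Figure D2:**
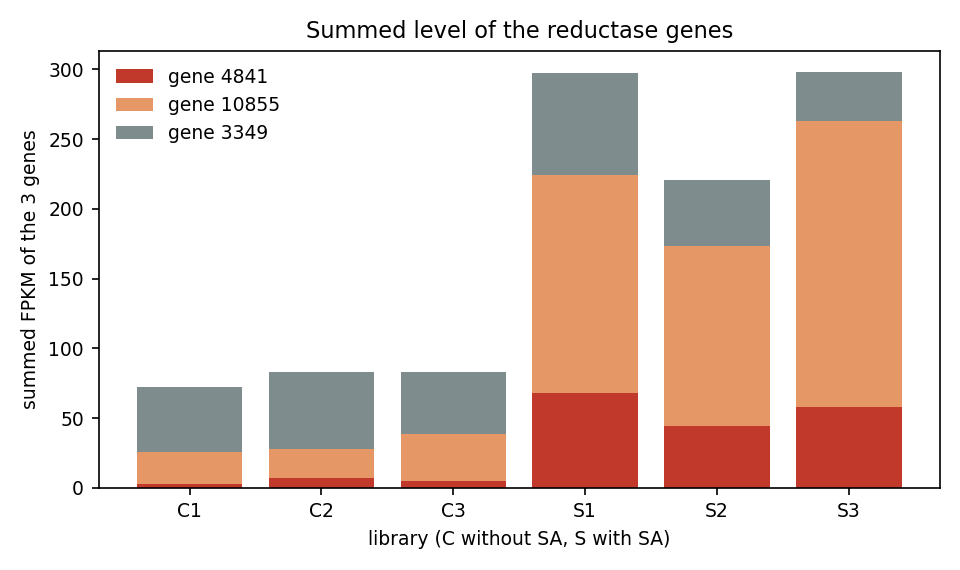
Summed FPKM of the 3 reductase genes in each library, stacked by gene (gene_4841 red, gene_10855 orange, gene_3349 grey). The bars reach 72.5 to 83.4 FPKM in the C group, mostly from gene_3349, and 220 to 298 FPKM in the S group, mostly from gene_10855. Gene_4841 and gene_10855 were chosen by their difference between these groups.

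Within each group, the family members did not vary in step. Across the 6 libraries Pearson's r of log2(FPKM + 0.1) was 0.96 between gene_4841 and gene_10855, a value that the difference between the groups nearly fixes, since it chose both. On the deviations from the group means, r was only 0.12 for this pair, 0.41 for gene_4841 with gene_3349 and −0.48 for gene_10855 with gene_3349. These 6 libraries leave few independent deviations and share their scaling, so the values describe these libraries only. The pattern of gene_10855 came 94th among the 4913 annotated genes ranked by their r with gene_4841, and gene_4841 came 100th in the ranking for gene_10855.

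Both chosen genes were unlike most genes of this genome in structure. Gene_4841 lies on the minus strand of its contig at 1348667 to 1349659 and has a coding length of 993 bases in 1 exon. Gene_10855 lies on the plus strand of another contig at 1288097 to 1288984, with 888 bases in 1 exon. Gene_3349 lies on the minus strand of yet another contig at 2532584 to 2533462, with 774 coding bases in 2 exons. The median gene of the table had 7 exons, and 101 of the 6249 genes (1.62%) had 1 exon. Of the 84 tested genes with 1 exon, which include both reductases, 11 were higher (13.1%) and 4 were lower (4.76%) with SA, beside 19.9% and 3.03% of all genes, and their median log2 difference was 0.12, beside 0.21 for all genes. Both reductases were chosen by this contrast, and no share without them was computed. By annotation, gene_4841 and gene_3349 carried the GO terms coenzyme binding and catalytic activity, and gene_10855 carried nucleotide-sugar metabolic process and catalytic activity. Their sequences were not compared, and how the authors' counting shared out reads that could come from more than 1 of these genes was not tested.

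The genes next to each reductase were examined because neighbours are not chosen by their values. Around gene_10855, 4 of the 10 nearest genes were higher with SA and 0 were lower, beside 19.9% of all genes higher and 3.03% lower, at a median log2 difference of 0.50. With centred libraries, and also after quantile normalization, 3 of these 10 were higher and 0 lower, beside 7.26% and 6.61% of all genes higher. Around gene_4841, 2 of the 10 nearest genes were higher and 0 lower, with a median of 0.03. With centred libraries, and also after quantile normalization, 0 of these 10 were higher and 3 lower, beside 15.3% and 8.47% of all genes lower. Whether the surroundings of the 2 reductases differ was not tested.

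Gene_10853, described as related to E2 ubiquitin-conjugating enzymes, which pass ubiquitin to proteins, lies head-to-head with gene_10855 on the other strand, with 701 bases between them. It was at 17.7, 15.6 and 12.5 FPKM in S1 to S3 and at 4.27, 6.29 and 3.75 FPKM in C1 to C3. All S libraries were above all C libraries, and unlike gene_10855 this neighbour was lowest in S3 within the S group and lowest in C3 within the C group. The log2 difference was 1.68 (SE 0.23, limma, adjusted p = 0.0020, n = 3 per group), and it was called under both other scalings (adjusted p = 0.0071 with centred libraries and 0.0125 after quantile normalization).

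Gene_10851, a MYND-type zinc finger gene beyond it, was at 11.5, 17.8 and 14.1 FPKM in S1 to S3 and at 4.57, 5.65 and 6.58 FPKM in C1 to C3. Again the groups did not overlap. The log2 difference was 1.35 (SE 0.21, limma, adjusted p = 0.0034). On the other side of gene_10855, gene_10863 with a basic-leucine zipper, a domain of DNA-binding transcription factors, rose from 29.1 ± 3.81 to 51.2 ± 10.5 FPKM (SD, n = 3 per group; log2 difference 0.80, limma, adjusted p = 0.0092). These 3 calls held under both other scalings and without any 1 library, where the highest adjusted p was 0.0103, 0.0181 and 0.0338 in that order.

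The other rises among the neighbours were less stable. Gene_10847, the beta subunit of eIF-2B, which recharges translation initiation factor 2 with GTP, rose by 0.56 on the log2 scale (limma, adjusted p = 0.0158) and lost the call without S2 (0.0796), with centred libraries (0.128) and after quantile normalization (0.174). Near gene_4841, gene_4851, a transporter of the major facilitator superfamily, was at 56.3, 73.1 and 133.7 FPKM in S1 to S3 and at 30.3, 26.5 and 49.7 FPKM in C1 to C3. It was highest in replicate 3 of both groups, and its log2 difference of 1.26 (limma, adjusted p = 0.0178) was no longer called without C2 (0.0543), with centred libraries (0.0618) or after quantile normalization (0.0625). Gene_4837, the sigma subunit of a vesicle coat adaptor, had a log2 difference of 0.77 (limma, adjusted p = 0.0376), which lost the call under both other scalings (0.113 and 0.176) and without S1, S2, S3, C2 or C3 (up to 0.116).

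The other genes directly beside the reductases did not pass the test. Gene_4843, a mitochondrial rho GTPase gene that is head-to-head with gene_4841 across 937 bases, was at 31.5 ± 1.47 FPKM in the S group and 28.0 ± 2.51 FPKM in the C group (SD, n = 3; log2 difference 0.17, limma, adjusted p = 0.341), and the difference was −0.10 with centred libraries. Gene_4839, a hypothetical protein on the same strand as gene_4841 and 383 bases away, was listed at 1.82 to 2.82 FPKM in all libraries, so the neighbour on that side was low with and without SA. Gene_10857, a ribonuclease H-like gene that starts 212 bases downstream of gene_10855 on the same strand, was at 13.7 ± 1.54 FPKM in the S group and 10.1 ± 1.67 FPKM in the C group (SD, n = 3; log2 difference 0.44, limma, adjusted p = 0.0942). None of the 20 neighbours overlapped a reductase in its listed coordinates, which hold coding parts only.

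**Figure D3:**
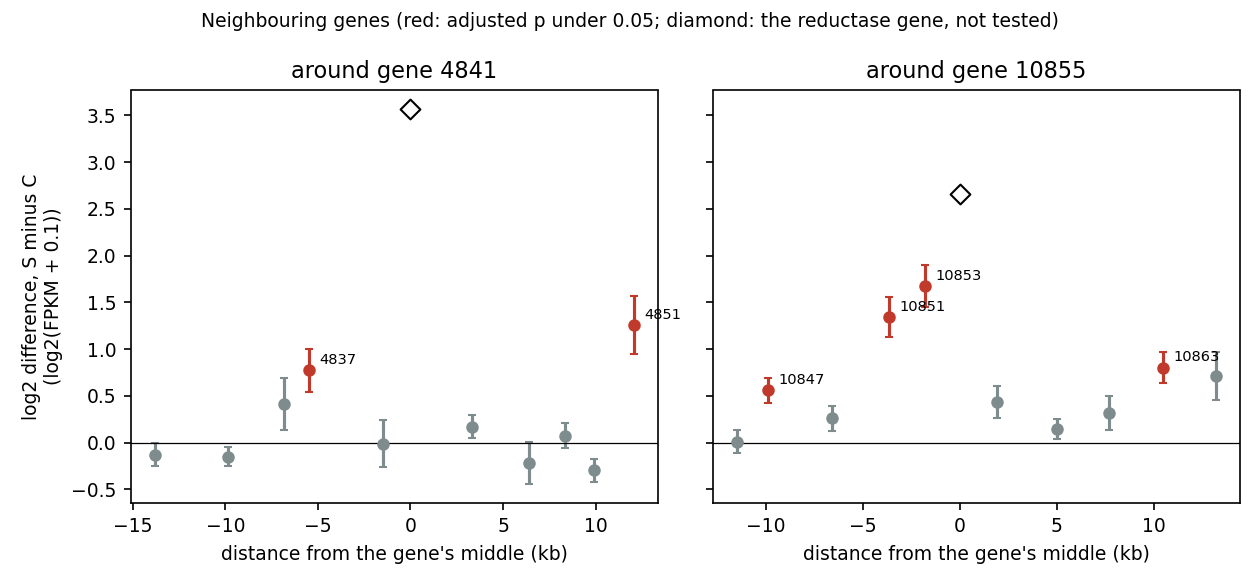
Log2 difference in log2(FPKM + 0.1) between the S and C groups (points, with the SE as whiskers, n = 3 per group) against the distance in kb from the middle of gene_4841 (left) or gene_10855 (right). Red marks an adjusted p under 0.05 and the open diamond the reductase, which was not tested: gene_10853 (1.68) and gene_10851 (1.35) are the tallest red points on the right, and gene_4851 (1.26) is the tallest on the left.

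Every gene on the lists of related enzymes had a smaller difference than gene_4841 and gene_10855, which the choice of those genes nearly fixes. The lists were filled by words of the description and can miss relatives, such as gene_4847, described as reductases with broad substrate range. The list of extended SDR relatives, filled by words such as epimerase and NmrA and so including some enzymes of other folds, had 9 tested genes. Of these, 0 were higher and 1 was lower, beside 19.9% and 3.03% of all genes, a list too short to be set apart from these shares, with a median log2 difference of 0.10 and a range of −0.67 to 0.41, and only the lower one had an unadjusted p under 0.05 in limma. The gene that fell was gene_5613, described as NmrA-like, a kind of SDR protein that binds the cofactor. Its FPKM was 6.30, 5.20 and 5.69 in S1 to S3 and 10.1, 10.2 and 7.54 in C1 to C3, which did not overlap. The log2 difference was −0.67 (SE 0.19, limma, adjusted p = 0.0300), and the call was lost without S2, S3, C1 or C2 (log2 differences from −0.67 to −0.60, adjusted p up to 0.119). The nearest named relatives did not pass: gene_3305, a 3-beta-hydroxysteroid dehydrogenase, which acts on sterols, had a difference of 0.41 (adjusted p = 0.143) and gene_10577, a putative NAD-dependent epimerase, 0.39 (adjusted p = 0.347; −0.05 after quantile normalization).

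Other carbonyl reductases, taken by words such as alcohol dehydrogenase, aldo/keto reductase and quinone oxidoreductase, numbered 60 genes, of which 59 were tested. Of these, 9 were higher and 6 lower in the S group, beside 19.9% and 3.03% of all genes, and their median was 0.06. The words also took in subunits of the respiratory complex I, and without these and other unrelated rows, a choice made after seeing the data, 34 genes remained with 7 higher, 2 lower and a median of 0.14. With centred libraries 3 of the 59 were higher and 12 lower, beside 7.26% and 15.3% of all genes. After quantile normalization 4 were higher and 5 lower, beside 6.61% and 8.47%. The counts without rescaling also moved with single libraries, from 4 higher without S2 to 16 higher without C1.

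Gene_747, a short-chain alcohol dehydrogenase relative, led this list, with 28.9, 21.4 and 19.4 FPKM in S1 to S3 and 11.0, 10.6 and 9.47 FPKM in C1 to C3. The groups did not overlap, and the log2 difference was 1.14 (SE 0.17, limma, adjusted p = 0.0032). Gene_1669, an alcohol dehydrogenase of class V, rose from 7.05 ± 0.561 to 13.6 ± 1.73 FPKM (SD, n = 3 per group; limma, adjusted p = 0.0058). Gene_4507, an NADH:flavin oxidoreductase of the old yellow enzyme kind, rose from 25.7 ± 2.56 to 42.0 ± 3.94 FPKM (SD, n = 3 per group; limma, adjusted p = 0.0065). Gene_881, an aryl-alcohol dehydrogenase, rose from 104 ± 12.8 to 173 ± 25.8 FPKM (SD, n = 3 per group; limma, adjusted p = 0.0066), but was not called with centred libraries (0.0757). In the other direction, and named after their values were seen, were the SDR gene_10339, which fell from 198 ± 22.5 to 132 ± 19.4 FPKM (SD, n = 3 per group; limma, adjusted p = 0.0114), and the aldo-keto reductase gene_1479, which fell from 54.2 ± 3.77 to 38.3 ± 2.38 FPKM (adjusted p = 0.0139) and lost the call without S2 or S3 (up to 0.0650). The largest of these log2 differences was 1.14, beside 3.57 and 2.66 for gene_4841 and gene_10855, which were chosen by this difference.

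Enzymes that could act on the products of a reductase, or supply its cofactor, were looked at next, in lists too short to be set apart from the background of all genes (19.9% higher and 3.03% lower). Of 6 aldehyde dehydrogenases, which oxidise aldehydes to acids, 0 were higher and 0 lower by limma at an adjusted p under 0.05, with a median of 0.11, although 3 had an unadjusted p under 0.05. Among them was gene_11631, which was at 435, 435 and 1152 FPKM in S1 to S3 and at 456, 312 and 277 FPKM in C1 to C3 (log2 difference 0.82, limma, adjusted p = 0.0971). Its highest value came from S3 alone, and S1 and S2 lay below C1. Of 6 genes on the list of NADPH supply, which holds enzymes of the pentose phosphate path and NAD kinase, 1 was higher and 0 lower, with a median of −0.10. That gene was the transaldolase gene_2047, an enzyme that itself makes no NADPH, at 510 ± 35.1 FPKM in the S group and 420 ± 28.9 FPKM in the C group (SD, n = 3; log2 difference 0.28, limma, adjusted p = 0.0428). The call was lost with centred libraries (0.979), after quantile normalization (0.0526) and without S1, S2, S3, C1 or C2 (up to 0.158). With centred libraries 5 of the 6 were lower, beside 15.3% of all genes. Glucose-6-phosphate 1-dehydrogenase (gene_3195), the first NADPH-forming step of that path and named after its values were seen, had a difference of 0.00 (limma, adjusted p = 0.983), and it was among the 5 lower genes with centred libraries (0.0480). The words of this list also sought malic enzyme and NADP-dependent isocitrate dehydrogenase, but no gene matched them. The paper reports an isocitrate dehydrogenase gene as higher with SA and names NADPH as its product. That gene is not on this list, so the list does not cover all supply of NADPH.

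**Figure D4:**
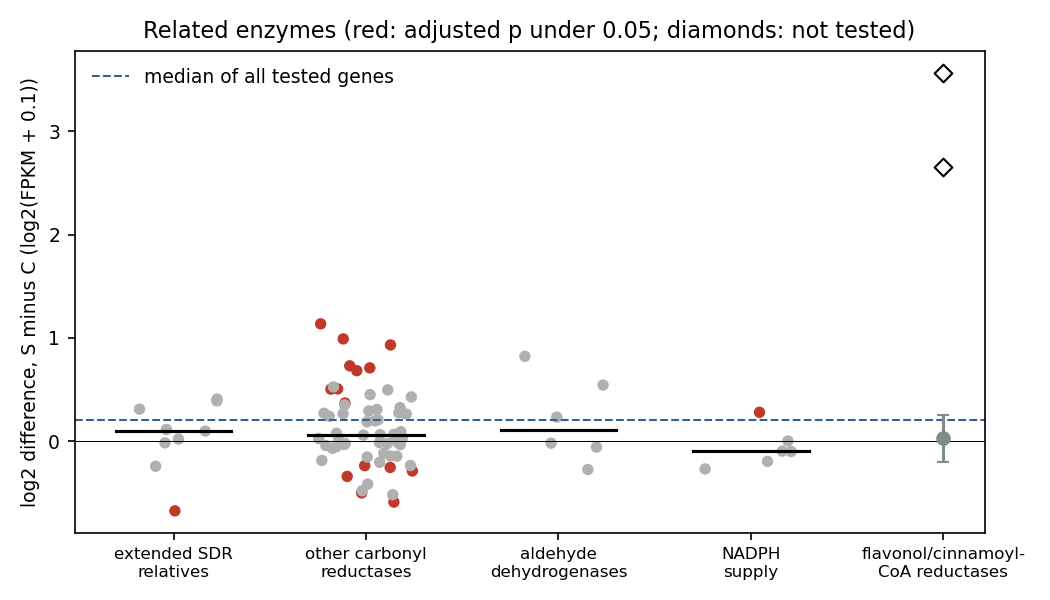
Log2 difference in log2(FPKM + 0.1) between the S and C groups for each gene of the 4 lists of related enzymes and for the 3 reductase genes (grey, not called; red, adjusted p under 0.05; diamonds, gene_4841 and gene_10855, not tested). Black bars are list medians (0.10, 0.06, 0.11 and −0.10), the dashed line is the median of all tested genes (0.21), and the whiskers of gene_3349 are its SE (0.22). Both diamonds (3.57 and 2.66) lie above every gene of the lists, which the choice of their genes by this difference nearly fixes.

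The annotated genes with the pattern most like each chosen reductase were ranked by Pearson's r over the 6 libraries. All libraries of both groups enter this r, so genes that differ between the groups lead the ranking by construction and no test was made. For gene_4841 the first was gene_2623, a class III extradiol dioxygenase subunit, an enzyme kind that opens aromatic rings next to their hydroxyl groups, with an r of 0.998. It was at 69.5, 56.0 and 64.5 FPKM in S1 to S3 and at 24.6, 31.0 and 27.7 FPKM in C1 to C3. The order of its libraries within both groups was that of gene_4841, and r on the deviations from the group means was 0.97, which its choice as the highest of 4913 values of r over these same libraries largely fixes. Its log2 difference was 1.19. Next came gene_11911 (a CFEM domain protein of the cell surface), gene_4891 (armadillo repeats), gene_249 (phosphoglycerate kinase) and gene_3063 (enolase), with r from 0.991 to 0.994 and log2 differences from 0.49 to 0.88. Phosphoglycerate kinase and enolase are both enzymes of lower glycolysis.

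For gene_10855 the first was gene_4213, an FAD-dependent oxidoreductase, with an r of 0.995 and a log2 difference of 0.41. Gene_4889 (a concanavalin A-like lectin or glucanase), gene_2513 (a tyrosine tRNA ligase), gene_10119 (a Chl1 helicase) and gene_10965 (a thioredoxin, a small redox protein) followed with r from 0.992 to 0.995 and log2 differences from 0.73 to 1.38. Thioredoxin gene_10965 was at 108, 105 and 128 FPKM in S1 to S3 and at 68.0, 65.1 and 72.0 FPKM in C1 to C3. Like gene_10855, all 5 of these genes were highest in replicate 3 of both groups, which their choice by r over these same libraries largely fixes. The 2 rankings shared no gene in their first 5. The choice of genes depended on the scaling, since 1 of the first 5 for each reductase was among the first 5 with centred libraries and 2 after quantile normalization.

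**Figure D5:**
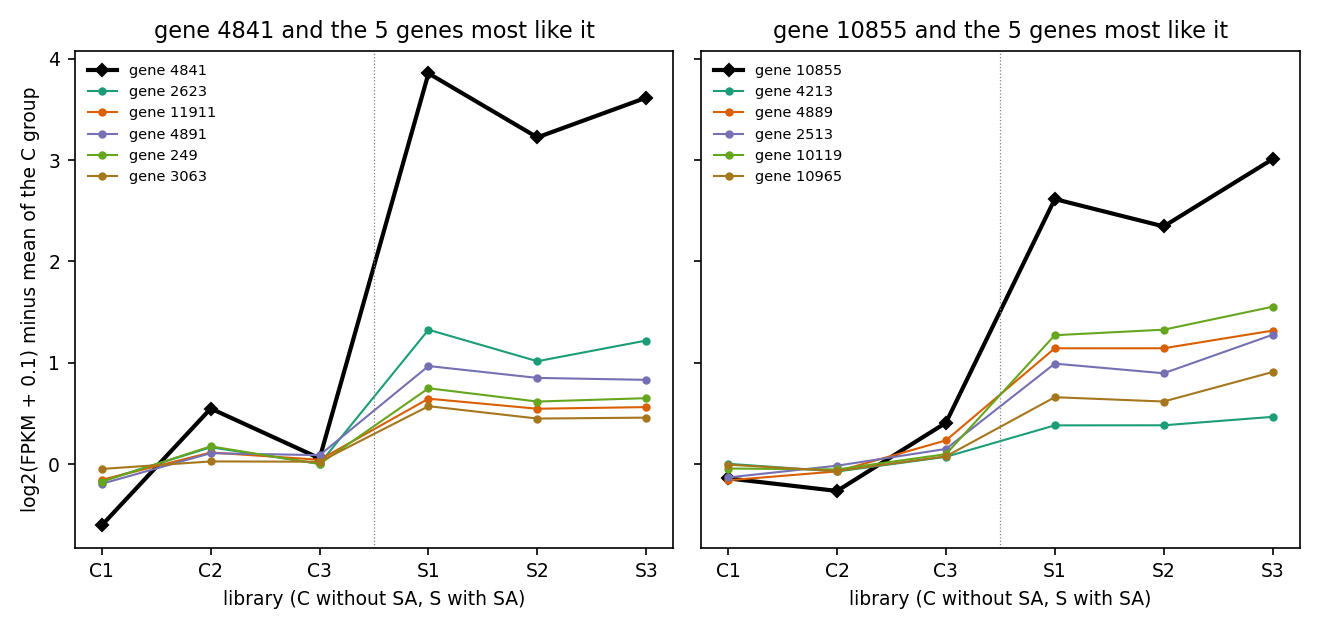
Values of log2(FPKM + 0.1) minus the mean of the C group in each of the 6 libraries for gene_4841 (left, black) and gene_10855 (right, black), with the 5 annotated genes most like each (coloured). Each coloured line is higher in every S library than in every C library, which the choice of these genes by r nearly fixes. The same held for 36.1% of all tested genes. Differences between the groups are smaller than for the black line, whose gene was chosen by its difference: 0.49 to 1.19 on the left, beside 3.57, and 0.41 to 1.38 on the right, beside 2.66.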

How the data were processed

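Poly(A) RNA of 6 libraries (3 per group) was sequenced with a strand-marking protocol. The authors trimmed reads with fastp, aligned them with HISAT2 and derived the deposited FPKM with StringTie. The authors name edgeR for their comparison. The sources used here give neither versions nor the strand setting, and name 2 assemblies. The columns of the authors' comparison (fold, its log2, p-value, q-value and call) were not used, and 0 other columns held values of single samples. Groups came from the treatment label. The dose and culture conditions came from the paper's text. Of the 6249 genes on 70 contigs, 136 had too low a mean to be tested, among them 6 at 0 throughout. As 99.8% of the listed lengths were multiples of 3, they are taken as coding lengths.

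Read counts could not be recovered. Over the units tried, a mean of 9.92% to 10.0% of the low values of a library came within 0.05 of whole reads, where chance gives 10%. The best unit of each library gave 17.1% to 19.2%, a highest value for which no chance level was computed. The paper gives the range of valid reads per sample, but the fragments behind each value were not estimated here, and no counting interval is given. The test was limma 3.58.1 (R 4.3.3) on log2(FPKM + 0.1) (mean-variance trend, two-sided, Benjamini-Hochberg adjustment over all 6113 genes averaging 0.5 FPKM or more, called at an adjusted p under 0.05). The fit was tested on simulated data. FPKM are not counts, so no count test was run. On this scale the change of low genes is understated. What the p-values weigh is the variation among these libraries, and it may be technical. Figures were drawn with matplotlib 3.10.9.

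The reductase genes and the lists were chosen with earlier results of these data known. Named genes were the 3 reductases, the 4 genes of each list that had the lowest adjusted p, the 5 neighbours on each side of gene_4841 and gene_10855 on their contigs, and the 5 annotated genes with the highest r with each. Lists were filled by words of the description. The 14 alternatives were a pseudocount of 1 or 0.01, no limit on low values or 1 FPKM, quantile normalization, centring on the median, a replicate block, a fit without the trend, and leaving out each library. The shorter list of carbonyl reductases was added after seeing the data.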

Additional observations from a re-analysis of the deposited data

How the results depend on the processing

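Gene_4841 kept a log2 difference of 3.26 to 3.84 and gene_10855 one of 2.48 to 2.86 when each library was left out, and the pseudocount, the limit on low values and both scalings left them between 3.28 and 3.59 and between 2.38 and 2.66. Over all genes, 444 were higher and 937 lower with centred libraries, 404 and 518 after quantile normalization, and 80 were lower in limma without the trend. Leaving out 1 library gave 501 to 1338 higher and 67 to 293 lower genes. Gene_3349 was not called under any alternative, with −0.25 when centred, −0.20 after quantile normalization and −0.25 to 0.27 when 1 library was left out.

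With centred libraries, extended SDR relatives had 2 genes lower, other carbonyl reductases 3 higher and 12 lower, aldehyde dehydrogenases 1 lower, NADPH supply genes 0 higher and 5 lower, and the neighbours 3 higher and 3 lower. After quantile normalization the extended SDR relatives had 2 lower, other carbonyl reductases 4 higher and 5 lower, NADPH supply genes 0 higher and 1 lower, and the neighbours 3 higher and 3 lower. Without the trend 2 other carbonyl reductases were lower and 0 NADPH supply genes were higher. The shorter list of carbonyl reductases had 2 lower in limma with the trend. Leaving out 1 library gave 0 to 1 lower extended SDR relatives, 4 to 16 higher and 1 to 7 lower carbonyl reductases, 0 to 1 higher aldehyde dehydrogenases, and 0 to 1 higher and 0 to 1 lower NADPH supply genes.

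Differences that were not called changed sign under some alternatives. With centred libraries and after quantile normalization these were gene_10681 (−0.042 and −0.13), gene_10845 (−0.27 and −0.23), gene_10849 (−0.013 and −0.045), gene_4843 (−0.10 and −0.10) and gene_4847 (−0.20 and −0.27). With centred libraries alone it was gene_10859 (−0.13), and after quantile normalization alone gene_10577 (−0.048), gene_10861 (−0.0093), gene_4835 (−0.0052) and gene_6633 (−0.046). When 1 library was left out, gene_10845 ran from −0.083 to 0.076, gene_4839 from −0.14 to 0.16 and gene_4845 from −0.44 to 0.10. Apart from the shift that centring takes off every difference, the cause of these changes was not tested. Of the 47 named and tested genes under 14 alternatives, 569 of 658 values kept their direction and call, 49 lost a call, 14 gained one and 26 changed sign.

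Same-numbered libraries had deviations with an r of −0.02, 0.16 and −0.003. Differently numbered libraries were not compared, so these values cannot decide whether the replicate numbers pair the libraries. With the replicate block 22 calls among the named genes became 19, with 0 gained, and 0 extended SDR relatives were lower. Without read counts, the precision of low values such as those of gene_4841 in the C group was not estimated.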
